A study of Mus musculus with 5 samples.

Results

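The somites are the paired blocks of paraxial mesoderm from which the vertebrae, the ribs, the skeletal muscle of the trunk and part of the dermis form, and 10 transcription factor genes of these blocks and of the mesenchyme around them were followed here in whole mouse embryos. The genes were chosen by name, and a probe set was taken where the platform annotation gives it 1 of these symbols only. All 10 genes were found, with 15 of the 22626 probe sets other than controls, out of 12393 genes with a probe set. Meox2 and Foxc1 have 2 probe sets each, Prrx1 has 4 and the other 7 genes have 1. The embryos were Folr1-/- (2 arrays) or Folr1+/+ (3 arrays), of the C57BL6J strain, at gestation day 9.5, and the labels call the arrays of a genotype biological replicates without saying whether 1 embryo or several went on each. Folr1 encodes a folate receptor, and the knockout embryos came from Folr1+/- parents whose dams ate a folate supplemented diet before mating and through gestation. Whether the dams of the Folr1+/+ embryos ate that diet is not stated, so a difference in diet could not be separated from genotype (the 2 cannot be told apart).

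In a somite, bHLH and forkhead factors act while the block forms as an epithelium, homeobox factors mark its parts, and myogenic factors start the muscle layer. Tcf15, also called paraxis, is a bHLH factor that somites need in order to become epithelial. Foxc1 and Foxc2 are forkhead factors of paraxial mesoderm, and mouse embryos without both form no somites. Meox1 and Meox2 are homeobox factors of the somite, Nkx3-2 is a homeobox factor of the sclerotome, which gives the vertebrae, and Myf5 and Myog are bHLH factors of the muscle lineage. Prrx1 and Prrx2 are paired-related homeobox factors of the mesenchyme of limbs, face and body wall.

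The promoters of 7 of the 10 genes were matched in RefSeq (build GRCm38.p6), as windows of 300 bases that end 50 bases after a transcript start. The 4 printed here are those of Prrx1, Foxc1 and Meox2, whose signals were lower in the Folr1-/- arrays, and of Prrx2, the paralogue of Prrx1 that did not pass the test. They read 5' to 3' along the strand of the gene, and capitals mark every match on either strand to the TATA box letters (TATAAA), the letters CCAAT, the GC box letters (GGGCGG), an E-box (the letters CAGCTG) or a homeodomain site (the letters TAATTA). The windows lie at chr1:163313601-163313900 (minus strand, Prrx1), chr2:30845117-30845416 (plus strand, Prrx2), chr13:31806396-31806695 (plus strand, Foxc1) and chr12:37108290-37108589 (plus strand, Meox2).
Prrx1: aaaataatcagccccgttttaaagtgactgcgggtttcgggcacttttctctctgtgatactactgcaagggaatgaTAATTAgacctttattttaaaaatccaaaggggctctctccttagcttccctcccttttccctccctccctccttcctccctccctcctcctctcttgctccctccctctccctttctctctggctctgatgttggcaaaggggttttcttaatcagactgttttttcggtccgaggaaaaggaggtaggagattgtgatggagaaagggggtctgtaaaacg
Prrx2: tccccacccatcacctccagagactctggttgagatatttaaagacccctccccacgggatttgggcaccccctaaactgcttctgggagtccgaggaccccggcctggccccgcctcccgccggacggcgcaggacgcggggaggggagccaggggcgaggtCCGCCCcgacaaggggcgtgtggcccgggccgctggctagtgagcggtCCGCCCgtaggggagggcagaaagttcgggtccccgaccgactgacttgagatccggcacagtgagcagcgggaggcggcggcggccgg
Foxc1: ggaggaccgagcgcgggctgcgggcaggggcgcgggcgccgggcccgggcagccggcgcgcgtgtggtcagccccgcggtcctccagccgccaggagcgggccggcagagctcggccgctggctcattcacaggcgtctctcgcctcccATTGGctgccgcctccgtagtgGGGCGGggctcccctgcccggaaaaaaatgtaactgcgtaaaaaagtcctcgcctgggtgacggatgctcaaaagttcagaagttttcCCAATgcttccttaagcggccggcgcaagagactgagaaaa
Meox2: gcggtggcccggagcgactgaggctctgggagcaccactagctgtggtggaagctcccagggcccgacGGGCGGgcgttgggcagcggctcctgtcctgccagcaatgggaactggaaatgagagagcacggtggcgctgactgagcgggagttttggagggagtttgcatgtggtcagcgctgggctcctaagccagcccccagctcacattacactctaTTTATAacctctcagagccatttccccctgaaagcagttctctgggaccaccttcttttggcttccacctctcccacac

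The 2 Prrx windows differed in composition. That of Prrx1 was 47.7% G and C with 6 CpG dinucleotides, and that of Prrx2 was 70.3% with 28, where the median over all 32851 windows was 52.7% and 7. The 5' end of the gene lies at chr1:163315145 for Prrx1 and at chr2:30845064 for Prrx2. Both Prrx windows thus lie inside their gene and belong to a transcript start within it. The TAATTA match of Prrx1 begins 173 bases before that transcript start, and 5.29% of all windows hold these letters. The match of Meox2 to the TATA box letters begins 29 bases before the start, and 13.6% of all windows hold these letters on either strand. In Meox2 they lie on the strand opposite to the gene. Prrx2, Foxc1 and Meox2 each hold the GC box letters, as does Nkx3-2, while 35.7% of all windows do. Foxc1 holds CCAAT letters on either side of its start, which 37.4% of all windows hold. The CAGCTG letters were found in the window of Nkx3-2 alone among the 7, and in 16.3% of all windows.

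All 15 probe sets had a lower mean signal in the Folr1-/- arrays, and in 12 of them both Folr1-/- arrays were below all Folr1+/+ arrays, which also holds for 22.8% of all probe sets. Signals are MAS5 intensities on a linear scale, and they were tested as log2(signal + 16) with limma. Of the 10 genes, 6 passed the filter on dim signals (the 40th percentile of mean log2 signal over 12393 genes), each with its brightest probe set. Of these 6, 5 fell (Meox1, Tcf15, Prrx1, Foxc2 and Foxc1), 0 rose and Prrx2 did not pass, at an adjusted p of 0.05 over 7436 genes. Over all tested genes 15.0% changed, 6.79% being lower and 8.19% higher. Both Folr1-/- arrays were below all Folr1+/+ arrays in all 6 of these genes, and in 24.2% of all tested genes. The median log2 fold change, Folr1-/- minus Folr1+/+, was -1.26 over the 6 genes and -0.02 over all tested genes. The filter takes genes by their mean over all 5 arrays, so a gene dim in 1 genotype can pass through its signal in the other. The members and lists were chosen with results of these data known. In RNA of whole embryos, fewer cells of a type and less RNA per cell cannot be told apart.

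**Figure D1:**
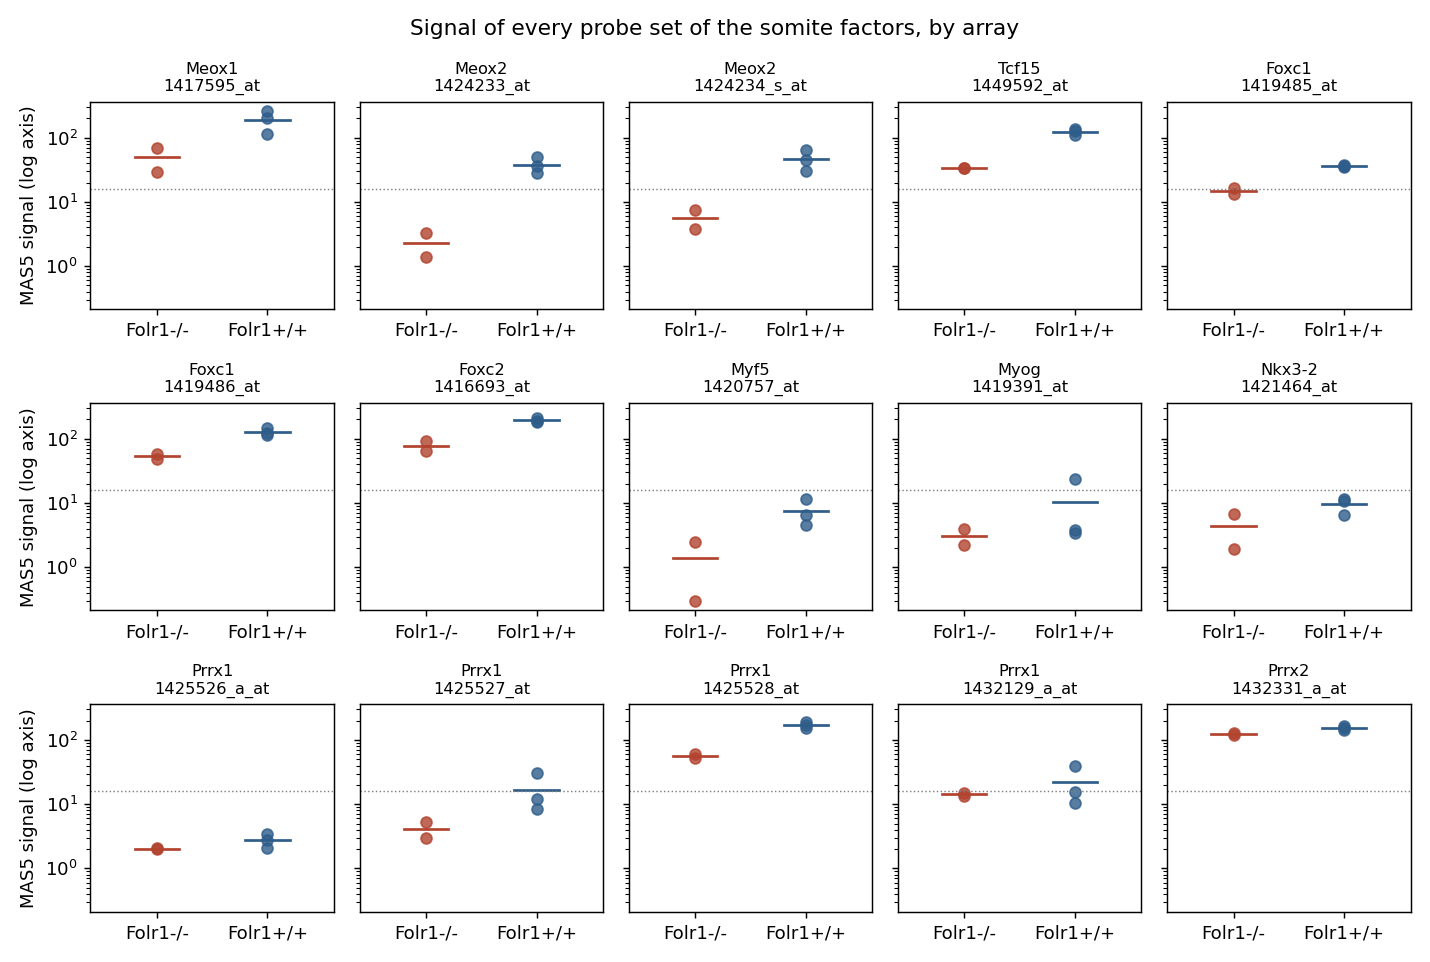
MAS5 signal (log axis) of each of the 15 probe sets, with a point per array, Folr1-/- (2 arrays) left and Folr1+/+ (3 arrays) right, a bar at each group mean and a dotted line at the pseudocount of 16. Both Folr1-/- points lie under all Folr1+/+ points in 12 panels, and the panels of Myog, Nkx3-2 and Prrx1 1432129_a_at overlap.

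The arrays of the 2 genotypes also differed in markers of other tissues and in sex-linked genes. The signal of Folr1 itself was 50.2 and 41.8 in the Folr1-/- arrays and 57.0, 50.01 and 40.2 in the Folr1+/+ arrays, and the sources used here do not say which part of the gene is deleted, so the genotype labels were not checked by it. All 13 visceral endoderm markers were higher, with summed signals of 19630 to 20530 in the Folr1-/- arrays and 4382 to 5288 in the Folr1+/+ arrays. Of 7 primitive erythroid markers tested, 6 were lower (sums of 200.2 to 614 in Folr1-/- and 5380 to 6318 in Folr1+/+), as were 6 of 7 neural progenitor markers (284 to 327 in Folr1-/- and 1077 to 1157 in Folr1+/+), 4 of 6 neural crest markers (523 to 626 in Folr1-/- and 1097 to 1299 in Folr1+/+, with 2 of 6 lower without either Folr1-/- array or without Folr1+/+ replicate 3) and 6 of 11 heart markers (2915 to 3266 in Folr1-/- and 4944 to 5191 in Folr1+/+). Endothelial markers gave 1 higher (Sox17, also a gene of endoderm) and 7 not past the threshold, with sums of 1599 to 1746 in Folr1-/- and 1223 to 1646 in Folr1+/+. All these sums take in every marker with a probe set, also those too dim to test. With no filter, 6 of 9 primitive erythroid, 6 of 9 neural progenitor, 2 of 8 neural crest and 5 of 11 heart markers were lower. Xist gave signal values of 419 and 770 in the Folr1-/- arrays and 25.0 to 35.7 in the Folr1+/+ arrays, and the Y-linked Eif2s3y had 104 and 3.13 in the Folr1-/- arrays and 300.3 to 372 in the Folr1+/+ arrays. Both kinds of signal were present on Folr1-/- replicate 1. Xist was high on both Folr1-/- arrays and low on every Folr1+/+ array, so sex and genotype cannot be told apart. The part of the marker and sex-linked differences in the results below was not tested.

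Of the homeobox pair Meox1 and Meox2, Meox1 fell in the fit over filtered genes and both fell in the fit over all probe sets. In the fit over all probe sets Meox1 passed narrowly (limma adjusted p = 0.047). That call was lost with a pseudocount of 64 (0.063), with no intensity trend (0.074) and without Folr1+/+ replicate 2 or 3 (0.120 and 0.159). The values that follow for Meox1 are of the fit over filtered genes. Meox1 (chromosome 11, probe set 1417595_at) gave signal values of 29.3 and 69.8 in Folr1-/- replicates 1 and 2, and 114, 257 and 200 in Folr1+/+ replicates 1 to 3. The groups did not overlap, though the arrays of each genotype were spread by more than a factor of 2. The mean was 49.5 ± 28.6 (SD, n = 2) in Folr1-/- embryos and 190.6 ± 72.0 (SD, n = 3) in Folr1+/+ embryos, a log2 fold change of -1.66 ± 0.32 (SE, limma adjusted p = 0.0045). Without Folr1-/- replicate 1 the log2 fold change was -1.20 and did not pass (adjusted p = 0.094), and without Folr1-/- replicate 2 it was -2.12.

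Meox2 (chromosome 12), which limb muscle needs to form in the mouse, was too dim for the filter, with its brightest probe set at the 35.8th percentile of all genes. Probe set 1424234_s_at gave signal values of 7.54 and 3.78 in the Folr1-/- arrays and 30.1, 45.6 and 63.5 in the Folr1+/+ arrays. Probe set 1424233_at had 1.38 and 3.22 in the Folr1-/- arrays and 28.5, 49.5 and 35.8 in the Folr1+/+ arrays. In both, every Folr1-/- value was under the pseudocount of 16 and every Folr1+/+ value was above it. In a fit over all 22626 probe sets with no filter, in which 4.06% changed, 1.62% being lower and 2.44% higher, the log2 fold changes were -1.50 ± 0.28 (SE, limma adjusted p = 0.028) for 1424234_s_at and -1.54 ± 0.24 (adjusted p = 0.014) for 1424233_at. The pseudocount sets their size, with -2.83 and -3.58 at a pseudocount of 1 and -0.65 and -0.62 at 64, and both calls were lost with either Folr1-/- array left out (adjusted p of 0.103 to 0.189) or with Folr1+/+ replicate 3 left out (0.057 and 0.084). That of 1424234_s_at was also lost without Folr1+/+ replicate 2 (0.075).

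Tcf15, the factor of somite epithelium (chromosome 2, probe set 1449592_at), fell, with little spread among the Folr1-/- arrays. It read 33.4 and 33.3 in the Folr1-/- arrays and 129, 108 and 136 in the Folr1+/+ arrays. The Folr1-/- mean was 0.268 times the Folr1+/+ mean, and the groups did not overlap. The log2 fold change was -1.50 ± 0.18 (SE, limma adjusted p = 0.00028) and stayed between -1.59 and -1.44 with any 1 array left out.

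Both genes of the forkhead pair fell. Foxc2 (chromosome 8, probe set 1416693_at) gave signal values of 64.002 and 91.2 in the Folr1-/- arrays and 182, 208 and 188 in the Folr1+/+ arrays. Its highest Folr1-/- signal was still under its lowest Folr1+/+ signal, and the log2 fold change was -1.17 ± 0.18 (SE, limma adjusted p = 0.0014). Foxc1 (chromosome 13, probe set 1419486_at) had 48.6 and 58.5 in the Folr1-/- arrays and 125, 148 and 115 in the Folr1+/+ arrays. It fell by 1.06 on the log2 scale (SE 0.19, limma adjusted p = 0.0028), and the call was lost without Folr1-/- replicate 1 (-0.96, adjusted p = 0.054). The dimmer Foxc1 probe set 1419485_at had 13.1 and 16.7 in the Folr1-/- arrays and 34.3, 35.6 and 37.7 in the Folr1+/+ arrays. Its ratio of Folr1-/- to Folr1+/+ means, 0.415, was close to the 0.414 of the brighter probe set, while its log2 fold change of -0.75 ± 0.21 did not pass among all probe sets (adjusted p = 0.100).

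Of the Prrx paralogues, Prrx1 fell and Prrx2 did not pass. Prrx1 (chromosome 1, probe set 1425528_at) gave signal values of 53.2 and 61.3 in the Folr1-/- arrays and 152, 172 and 189 in the Folr1+/+ arrays. Its groups did not overlap, and the log2 fold change was -1.35 ± 0.18 (SE, limma adjusted p = 0.00043). Prrx2 (chromosome 2, probe set 1432331_a_at) had 118 and 126 in the Folr1-/- arrays and 145, 154 and 168 in the Folr1+/+ arrays. Its groups did not overlap either, but the log2 fold change was -0.31 ± 0.17 (SE) and did not pass (limma adjusted p = 0.236). Groups that do not overlap were found in 46.7% of all tested genes.

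The other 3 probe sets of Prrx1 were dim and did not all repeat the change. Probe set 1425527_at gave signal values of 2.97 and 5.31 in the Folr1-/- arrays and 11.9, 30.5 and 8.37 in the Folr1+/+ arrays, with no overlap and a log2 fold change of -0.65 ± 0.28 (SE, adjusted p = 0.263). Probe set 1432129_a_at had 13.4 and 15.0 in the Folr1-/- arrays and 15.7, 39.8 and 10.5 in the Folr1+/+ arrays. Its groups overlapped, Folr1+/+ replicate 2 was the high value, and its log2 fold change of -0.26 ± 0.32 turned to 0.058 without that array. Probe set 1425526_a_at stayed at 1.97 to 2.08 in the Folr1-/- arrays and 2.10 to 3.49 in the Folr1+/+ arrays. The call of Prrx1 thus rests on 1 bright probe set of 4, and when probe sets were averaged by gene Prrx1 was under the filter.

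**Figure D2:**
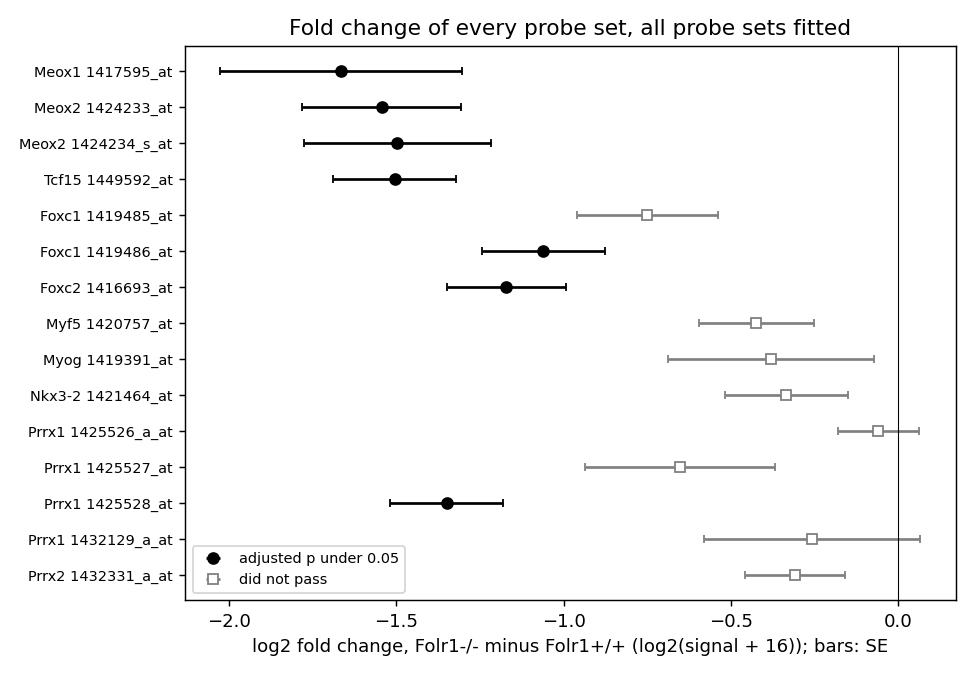
Log2 fold change (Folr1-/- minus Folr1+/+, log2(signal + 16)) of the 15 probe sets in the fit over all 22626 probe sets, with SE bars, filled where the adjusted p was under 0.05. All 15 points lie under 0, and 7 passed: those of Meox1, Tcf15 and Foxc2, both of Meox2, and 1 each of Foxc1 and Prrx1.

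The myogenic factors and Nkx3-2 were near the bottom of the signal range in both genotypes, between the 8.28th and the 13.7th percentile of all genes. Myf5 (chromosome 10), which starts the myotome, gave signal values of 2.50 and 0.297 in the Folr1-/- arrays and 4.48, 6.51 and 11.5 in the Folr1+/+ arrays. Myog (chromosome 1), a factor of muscle differentiation, had 2.23 and 3.93 in the Folr1-/- arrays and 23.8, 3.38 and 3.80 in the Folr1+/+ arrays. Only Folr1+/+ replicate 1 stood above the other arrays for Myog. Nkx3-2 (chromosome 5) had 6.76 and 1.94 in the Folr1-/- arrays and 11.5, 10.8 and 6.55 in the Folr1+/+ arrays. The log2 fold changes over all probe sets were -0.42 ± 0.17 for Myf5, -0.38 ± 0.31 for Myog and -0.34 ± 0.18 for Nkx3-2 (SE, limma adjusted p of 0.234, 0.560 and 0.370), so none passed. Detection calls were not used here. The Myf5 groups did not overlap, as in 38.0% of all probe sets.

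Over all 10 genes with no filter, 6 fell and 0 rose, the sixth being Meox2, with a median of -1.12. Of all 12393 genes in that fit, 6.03% changed, 2.51% being lower and 3.52% higher. Both Folr1-/- arrays were below all Folr1+/+ arrays in 8 of the 10, and in 23.3% of all genes. In the fit over probe sets, 7 of the 15 fell. Leaving out Folr1-/- replicate 1 brought that count to 0, and leaving out the other Folr1-/- array brought it to 2. It was 2 when Folr1+/+ replicate 3 was left out and 3 when Folr1+/+ replicate 2 was. The count over all probe sets was 90, 236, 269 and 391 in these 4 fits, and 918 with all arrays. In the fit over filtered genes, 3 of the 6 passed without Folr1-/- replicate 1 (Foxc2, Prrx1 and Tcf15), and 5 passed with any other array left out.

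**Figure D3:**
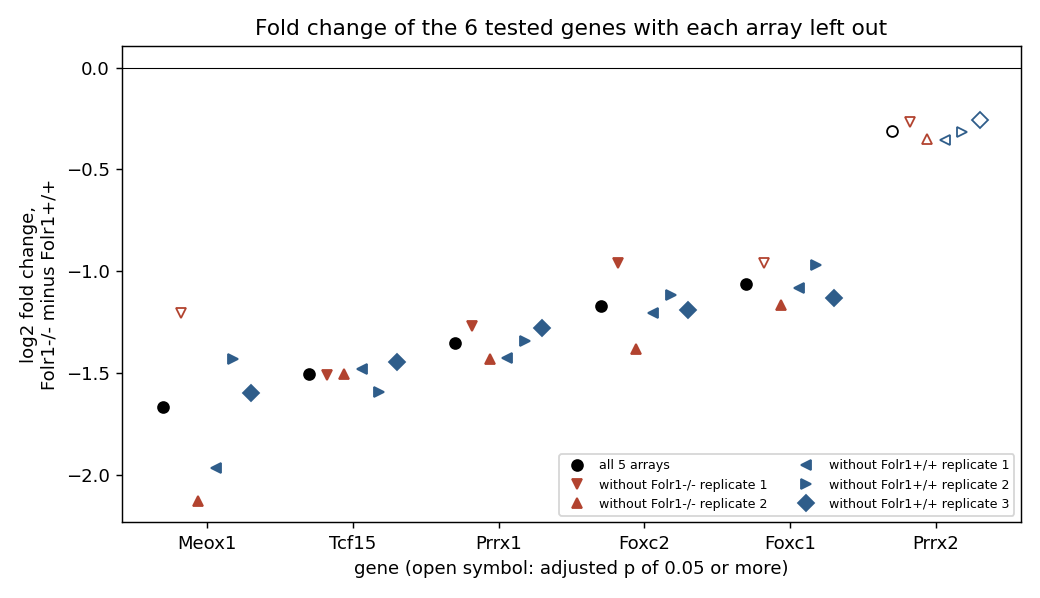
Log2 fold change of the 6 genes that passed the filter, with all 5 arrays (black circles) and with each array left out in turn, the Folr1-/- arrays in red and the Folr1+/+ arrays in blue, open where the adjusted p was 0.05 or more. Of the 5 genes that fell, Tcf15 moved least (-1.59 to -1.44) and Meox1 most (-2.12 to -1.20), and only Meox1 and Foxc1 lost their call, both without Folr1-/- replicate 1.

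Paralogues were compared by the difference of their log2 signals within each array, since levels of different probe sets are not comparable as such. For Prrx1 minus Prrx2 the difference was -0.96 and -0.88 in the Folr1-/- arrays and 0.061, 0.15 and 0.16 in the Folr1+/+ arrays. The groups did not overlap, and the fold changes differed by -1.04 on the log2 scale. For Foxc1 minus Foxc2 the fold changes differed by 0.11. These differences are given as descriptions, since the exact permutation test over the 10 regroupings of the arrays cannot give a 2-sided p under 0.2, the value it gave for the Prrx pair, and so could not show whether the fold changes of any of the 4 pairs differ. For Meox1 and Meox2 the order of the fold changes turned with the pseudocount, at -1.97 for Meox1 and -2.83 for Meox2 with a pseudocount of 1, and -1.15 for Meox1 and -0.65 for Meox2 with 64. For Myf5 minus Myog the fold changes differed by -0.045. That value is not read further, since nearly all their signals were under the pseudocount of 16, which then sets the difference.

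Other genes of the somite pathway, listed by role with results of these data known, moved in both directions. In the list for segmentation and presomitic mesoderm, where Notch and WNT signals time the somites, 5 genes fell and 2 rose among 13 tested, with 6 not past the threshold and a median log2 fold change of -0.40. Those that fell were Dll1, Notch1, Dll3, Hes7 and Nrarp. Of the other Notch pathway genes in the list, Lfng (-0.53 ± 0.20, SE, limma adjusted p = 0.089) and Notch2 (0.19 ± 0.23, adjusted p = 0.627) did not pass. Since 6 of 7 neural progenitor markers were lower too, a part of neural tissue in these falls is possible and was not tested. Notch1 read 119 and 206 in the Folr1-/- arrays and 302 to 360 in the Folr1+/+ arrays. Its log2 fold change of -0.97 shrank to -0.61 once the first Folr1-/- array was dropped, while dropping the second gave -1.34. The Notch ligand gene Dll1 gave signal values of 57.1 and 65.2 in the Folr1-/- arrays and 205, 197 and 178 in the Folr1+/+ arrays (-1.44 ± 0.17, SE, limma adjusted p = 0.00023). Tbx6 did not pass either (-0.24 ± 0.21, SE, limma adjusted p = 0.476), and Msgn1, Mesp1, Mesp2, Cer1 and Fgf8 were too dim to test. The genes of the list that rose were Dkk1, a secreted WNT antagonist, and Cyp26a1, an enzyme that breaks down retinoic acid. Dkk1 had 293 and 224 in the Folr1-/- arrays and 77.7, 67.1 and 74.9 in the Folr1+/+ arrays (1.61 ± 0.18, adjusted p = 0.00016). When Folr1-/- replicate 1 was left out, 2 genes of the list fell and 1 rose, and leaving out Folr1-/- replicate 2 or Folr1+/+ replicate 3 left 4 that fell and 1 that rose.

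In the dermomyotome and myotome list, 3 genes fell and 2 rose among 10 tested, with 5 not past the threshold (median -0.34), and 14 more were too dim to test, among them the muscle factor genes Myod1 and Myf6. The genes that fell were Pax3, a factor of the dermomyotome and the dorsal neural tube, and Ttn and Actc1, sarcomere genes that heart muscle also uses. Pax3 gave signal values of 26.8 and 28.2 in the Folr1-/- arrays and 88.6, 84.7 and 91.0 in the Folr1+/+ arrays (-1.26 ± 0.18, SE, limma adjusted p = 0.00084). The 2 that rose were Fgfr4, a receptor gene also used in endoderm (0.76 ± 0.19, SE, limma adjusted p = 0.020), and Tnnc1, a troponin gene of heart and slow muscle (0.61 ± 0.18, adjusted p = 0.045). With no filter both calls were lost (adjusted p of 0.063 and 0.090), and 2 of all 24 genes fell and 0 rose. The call of Tnnc1 was also lost with quantile normalization (0.070) and without Folr1+/+ replicate 1 or 3 (0.085 and 0.158). With 1 array left out, 1 or 2 genes of this list fell, 1 being without Folr1-/- replicate 1, and with either Folr1-/- array left out 0 rose.

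In the sclerotome and cartilage list, 4 genes fell and 1 rose among 6 tested, with Sox6 not past the threshold (median -1.29), and these counts were the same with any 1 array left out. With no filter, 5 of all 16 genes fell, 1 rose and the median was -0.33. Sox9, the master factor of cartilage that neural crest and gonads also use, gave signal values of 20.9 and 19.4 in the Folr1-/- arrays and 67.6, 59.6 and 93.1 in the Folr1+/+ arrays (-1.29 ± 0.22, SE, limma adjusted p = 0.0021). Col2a1, the collagen gene of cartilage and notochord, had 47.9 and 50.6 in the Folr1-/- arrays and 129, 173 and 132 in the Folr1+/+ arrays (-1.29 ± 0.19, adjusted p = 0.00083). Gas1, a hedgehog co-receptor gene, and the forkhead gene Foxd1 had log2 fold changes of -1.53 ± 0.19 and -1.67 ± 0.20. The gene that rose was Bmp4, a ligand gene that the lateral mesoderm also expresses, with 279 and 165 in the Folr1-/- arrays and 56.7, 36.8 and 63.6 in the Folr1+/+ arrays (1.78 ± 0.25, adjusted p = 0.00059). The Pax1 and Pax9 genes, which mark the sclerotome itself, were too dim to test.

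General mesenchyme genes and the signals that pattern somites centred near 0, and neither median had a stable sign. That of the mesenchyme list ran between -0.16 and 0.11 with 1 array left out, below 0 without Folr1-/- replicate 1, Folr1+/+ replicate 1 or Folr1+/+ replicate 3, and was -0.25 with the filter at the 60th percentile. That of the signals was below 0 without Folr1-/- replicate 1 (-0.065) and above 0 with any other array left out. Of 13 tested mesenchyme genes, 2 fell (Col3a1, a fibrillar collagen gene, and Pdgfra, a growth factor receptor gene), 1 rose (Msx1, a homeobox gene) and 10 did not pass, with a median of 0.012. With no filter, 2 of all 21 mesenchyme genes fell and 0 rose. The call of Pdgfra (-0.61 ± 0.15, SE, limma adjusted p = 0.017) was lost without either Folr1-/- array or without Folr1+/+ replicate 3 (adjusted p of 0.073 to 0.104), and that of Col3a1 held with any 1 array left out. Twist1, a bHLH factor gene of mesenchyme, gave signal values of 203 and 134 in the Folr1-/- arrays and 234, 190.4 and 177 in the Folr1+/+ arrays (-0.25 ± 0.20, SE, limma adjusted p = 0.441). Of 13 tested signal genes, 2 fell and Bmp4, also in the sclerotome list, rose, with 10 not past the threshold (median 0.12). The 2 that fell were Aldh1a2, which makes retinoic acid in the somites (-0.94 ± 0.17, adjusted p = 0.0030), and Gli2, a hedgehog effector gene (-0.72 ± 0.17, adjusted p = 0.013). Without Folr1-/- replicate 1 neither passed (adjusted p = 0.052 and 0.152), Gli2 did not pass without Folr1+/+ replicate 3 either (0.064), and the call of Msx1 was lost without any of 4 single arrays (adjusted p of 0.083 to 0.244). Whether the somite factors differ from these lists was not tested.

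**Figure D4:**
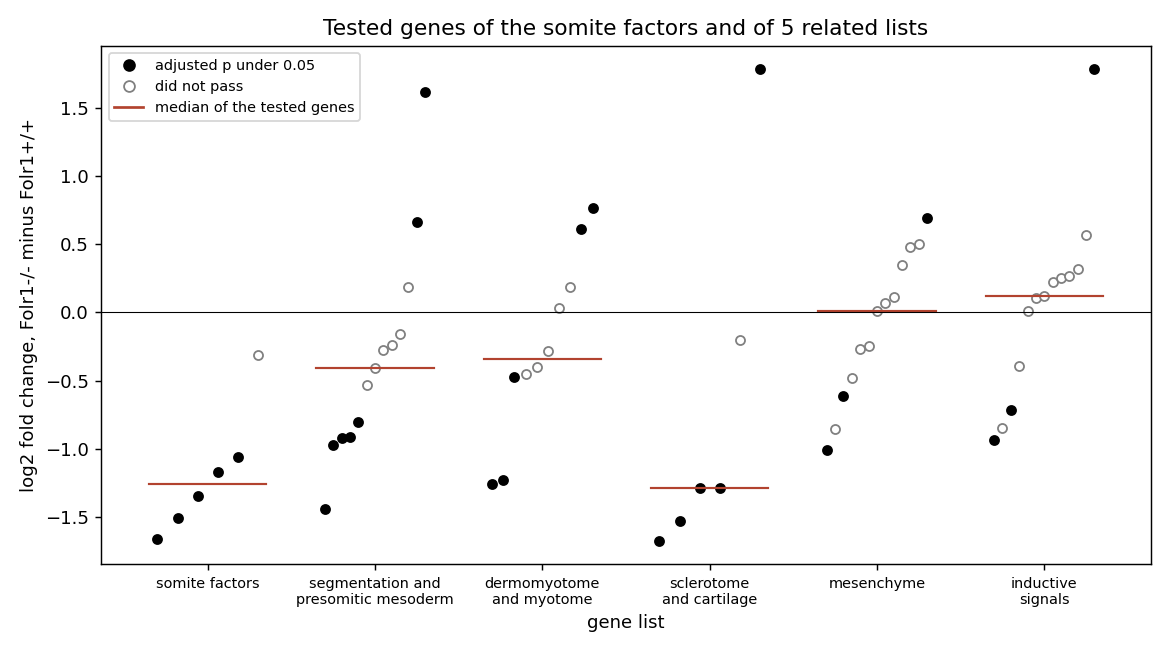
Log2 fold change (Folr1-/- minus Folr1+/+) of the tested genes of the somite factors and of 5 related lists, a point per gene, filled where the adjusted p was under 0.05, with a red line at each median. The medians are -1.26, -0.40, -0.34, -1.29, 0.012 and 0.12 from left to right, and Bmp4 is drawn in 2 lists.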

How the data were processed

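RNA of whole embryos was amplified in 2 rounds and hybridised to Affymetrix 430A arrays, per the labels' protocols. The deposited intensities are linear MAS5 signals, per the submitters' processing notes, and the authors' scaling left a trimmed mean (2% off each end) of 150.06 to 150.07 on every array, so it was kept. The median signal was 33.0 to 38.3. The ratio of the 3' to the 5' beta-actin control signal was 21.1 to 39.5 over the arrays. Its part in differences between the probe sets of a gene was not tested. Precision is limited by the number of arrays (3 residual degrees of freedom). P-values measure the spread between these arrays, with the variance of each gene drawn by limma toward that of other genes of like intensity. They thus do not rest on the spread of that gene alone.

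Of 22690 probe sets, 64 were controls, 20380 had 1 gene symbol, 691 had several and 1555 were not listed in the platform annotation. Of a gene's probe sets, the one brightest by mean log2(signal + 16) stood for it, and genes under the 40th percentile were left out. The main fit used limma 3.58.1 in R 4.3.3 (lmFit, eBayes with an intensity trend, Benjamini-Hochberg over 7436 genes), and a second fit took every probe set. Fold changes are Folr1-/- minus Folr1+/+ on the log2(signal + 16) scale and understate the change of dim genes. The code was tested on simulated arrays. The members and lists were chosen with earlier results of these data known. Named by rule are all members and, per list, up to 4 genes past the threshold by size of change, the neighbouring genes and the 2 nearest profiles. Not all of the neighbouring genes are printed here. Hes7, Nrarp, Lfng, Notch2, Tbx6, Msgn1, Mesp1, Mesp2, Cer1, Fgf8, Cyp26a1, Actc1, Col2a1, Twist1, Sox6, Sox17, Xist, Eif2s3y, Myod1, Pax1 and Pax9 were named after their values were seen. Gene positions and promoters are from RefSeq, GRCm38.p6. Alternatives were the pseudocount (1, 64), the filter (none, 60th percentile), median centring, quantile normalization, the mean of probe sets, no trend, the replicate number as a block and each array left out.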

Additional observations from a re-analysis of the deposited data

How the results depend on the processing

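With all 5 arrays 1114 genes and 918 probe sets changed. Leaving out 1 array at a time gave 369 to 1007 genes and 90 to 522 probe sets, lowest without Folr1-/- replicate 1 and next lowest, for genes, without Folr1+/+ replicate 3 (636) and Folr1-/- replicate 2 (664). The count of somite factors was 3 to 5 with 1 array left out and 3 of 4 tested with the filter at the 60th percentile, which leaves out Tcf15 and Foxc1. With no filter 747 genes changed. Median centring of the arrays gave 769 genes higher and 341 lower, against 609 and 505, and the median of all genes moved to 0.071, while the same 5 somite factors fell (median -1.17). The 6 tested genes kept their direction and side of the threshold in 79 of 81 alternatives, the other 2 being Meox1 and Foxc1 without Folr1-/- replicate 1. Single probe sets kept theirs in 137 of 165, with 26 losing the call and 2 turning direction: Prrx1 1425526_a_at with median centring (0.032) and Prrx1 1432129_a_at without Folr1+/+ replicate 2 (0.058, with a range of -0.48 to 0.058 over single arrays left out). Named genes that are no members kept theirs in 477 of 520. Those that turned were Kifap3 (0.0045 with median centring, 0.18 with the mean of probe sets, 0.036 without Folr1+/+ replicate 2 and 0.096 without Folr1-/- replicate 2, range -0.27 to 0.096) and Asb6 (0.053 with the mean of probe sets and 0.030 without Folr1-/- replicate 2, range -0.25 to 0.030). The cause was not tested, other than that fewer arrays leave fewer degrees of freedom. With the replicate number as a block (replicate block), 460 probe sets and 5 of the somite factors passed, and the calls of Foxc1 1419486_at and Meox2 1424234_s_at were lost. Arrays of the same number correlated at 0.019 (number 1) and -0.056 (number 2) in their deviations from the group means. With 2 Folr1-/- arrays, the deviations of 1 mirror those of the other, so these values cannot decide whether the numbers pair the arrays.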

Other observations

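The genes next to the somite factors on their chromosomes, taken as the nearest gene with a probe set on either side, were mostly too dim to test, and the lowest adjusted p among those tested was 0.094 (limma), for Bod1l beside Nkx3-2 (-0.56 ± 0.21). Foxc2 lies between Foxf1, 28.0 kb away, and Foxl1, 8.79 kb away, forkhead genes of gut and lateral mesoderm. Foxf1 gave signal values of 2.07 and 2.57 in the Folr1-/- arrays and 2.22, 3.05 and 28.2 in the Folr1+/+ arrays, and Foxl1 stayed under 4 on every array. Tcf15 lies between Srxn1, a gene of antioxidant defence, and Csnk2a1, a kinase gene, with log2 fold changes of -0.12 ± 0.20 and -0.17 ± 0.17 (SE, limma adjusted p of 0.732 and 0.524). Prrx2 lies between Asb6 and Ptges, with -0.11 ± 0.18 and -0.20 ± 0.21 (adjusted p of 0.728 and 0.553), and the tested neighbour of Prrx1 was Kifap3, with -0.087 ± 0.18 (adjusted p = 0.788). Myf6, the muscle factor gene 5.92 kb from Myf5, had 1.00 and 5.03 in the Folr1-/- arrays and 2.53, 2.56 and 9.76 in the Folr1+/+ arrays.

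The genes with the nearest profiles were found by the root mean square difference of mean-centred log2(signal + 16) over the 5 arrays. For Tcf15 they were Msx3, a homeobox gene of the dorsal neural tube (0.068), and Nes, an intermediate filament gene of neural progenitors (0.077), and the nearest other somite factor was Prrx1 (0.154). For Foxc1 they were the transferrin receptor gene Tfrc (0.059) and the N-cadherin gene Cdh2 (0.062), with Foxc2 at 0.106. For Foxc2 they were Zfp704 (0.079) and the myosin gene Myh6 (0.080), and for Prrx1 Kif1b (0.076) and Ptprs (0.086). Meox1 had no profile as near, with Rbpj, the nuclear effector of Notch, at 0.247 and Mylk at 0.284. For Prrx2 they were Itpkb (0.027) and Ppp4r3b (0.031). The measure takes in the difference between the 2 groups of arrays as well as the spread within them.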
